A study of Mus musculus with 10 samples.

Results

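The 10 genes described here are markers that define endothelial cells, the cells that line blood vessels: Pecam1, Cdh5, Kdr, Flt1, Tek, Tie1, Vwf, Eng, Emcn and Egfl7. They were chosen by symbol, and all 10 of 10 were found among the 55536 genes of the count tables and passed the filter on low counts in every comparison. RNA of bladder tissue from C57BL/6 mice (C57BL/6J in the study) was sequenced in 10 libraries, 4 of wild type (WT), 3 of OMD-/- and 3 of PRELP-/-. OMD (osteomodulin) and PRELP are secreted proteins of the extracellular matrix with leucine-rich repeats, and the knockout mice carry in every cell a deletion in one of these genes, with a β-galactosidase gene placed there. The genotype of the third group is spelt PRLEP-/- in the labels and its titles read PRELP. The labels name bladder tissue and the study speaks of epithelia, and markers of urothelium, fibroblasts, smooth muscle and endothelium were all present. The labels name no treatment, they give no age or sex. The animal numbers in the study's text differ from the library numbers of the labels, which were used here, and which libraries share an animal is not given, so p-values measure the spread between these libraries.

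Endothelial cells are held together at their borders by PECAM1 and VE-cadherin (Cdh5), and they respond to VEGF through the receptors encoded by Kdr and Flt1 and to angiopoietins through Tek, with Tie1 as its partner. Vwf encodes the clotting protein von Willebrand factor, Eng the co-receptor endoglin for ligands of the BMP and TGF-β family, Emcn a sialomucin of veins and capillaries, and Egfl7 a secreted vessel protein that hosts the microRNA miR-126 in its introns. In the bladder, such vessels run through the lamina propria under the urothelium and between the bundles of muscle. In bulk tissue, fewer endothelial cells and less RNA per endothelial cell cannot be told apart.

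Sequences just upstream of the genes are shown because 9 members stood higher in OMD-/- than in WT by the fitted fold change and Egfl7 lower. Promoter windows were taken from RefSeq on GRCm38.p6, and 7 of the 10 members matched, with 9 start sites among them. Each window below holds the 250 bases before a start site, on the gene's strand and 5′ to 3′. Capitals mark GGAAG on either strand (CTTCC when read on the other strand), letters within the motif bound by ETS transcription factors, which many endothelial genes use. Eng and Egfl7 are printed as the members that passed the test in opposite directions in OMD-/-, and Flt1 as a VEGF receptor whose OMD-/- levels overlapped those of WT.
Eng, chr2:32646345-32646594, plus strand: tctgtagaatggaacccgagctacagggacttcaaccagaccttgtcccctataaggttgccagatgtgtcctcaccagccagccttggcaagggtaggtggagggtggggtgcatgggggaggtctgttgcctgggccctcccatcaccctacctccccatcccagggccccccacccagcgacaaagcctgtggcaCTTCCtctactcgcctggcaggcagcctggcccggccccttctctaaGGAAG
Flt1, chr5:147726012-147726261, minus strand: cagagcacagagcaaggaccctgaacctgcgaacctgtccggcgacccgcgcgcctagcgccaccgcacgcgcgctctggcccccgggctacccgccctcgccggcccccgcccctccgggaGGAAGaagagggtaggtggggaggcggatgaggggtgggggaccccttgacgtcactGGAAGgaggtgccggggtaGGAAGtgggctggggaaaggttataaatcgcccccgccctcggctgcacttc
Egfl7, the second of its 3 start sites, chr2:26583615-26583864, plus strand: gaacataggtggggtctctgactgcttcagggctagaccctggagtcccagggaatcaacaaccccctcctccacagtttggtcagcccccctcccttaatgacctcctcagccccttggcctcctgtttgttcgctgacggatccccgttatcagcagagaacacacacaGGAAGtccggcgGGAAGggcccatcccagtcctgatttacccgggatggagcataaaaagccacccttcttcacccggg

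GGAAG was present in 7 of the 9 windows, and in 64.1% of all 32851 mouse windows of the same length. The longer AGGAAGT, which contains GGAAG, was present in 4 of the 9 and in 7.69% of all windows. CGGAAGT was found in 0 of the 9 windows (4.92% of all), and TATAAA in 1 of the 9, that of Flt1 (12.4% of all). These are matches of letters on both strands. The longer match is in the window of Eng, in that of Flt1 and in the first and second windows of Egfl7, so Egfl7 enters the count of 4 more than once. No other member with a window holds it. The third Egfl7 window, not printed, holds no GGAAG. The part of these letters in the levels was not tested. The mature miR-126a-3p that lies inside Egfl7 (chr2:26591402-26591423, plus strand) is printed with its seed, bases 2 to 8, in capitals, and these poly(A) libraries do not measure it.
mmu-miR-126a-3p: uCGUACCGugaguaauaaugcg

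Total counts were 20391437 to 46269079 per library. In the groups named for a knockout, Prelp was at 781.7 to 829 CPM (read counts divided by the TMM-scaled library size, in 1e+06 counts) in OMD-/- and at 1.86 to 4.09 CPM in PRELP-/-, against 213 to 316 CPM in WT. Omd had 0 counts in all 3 OMD-/- libraries, but only 0, 1, 8 and 12 counts in WT 1 to 4 and 5, 7 and 7 in PRELP-/-. At such low counts, its absence in OMD-/- says little about the knockout. The WT libraries fell into pairs. WT 1 and WT 2 held 188 and 163 CPM of 4 Y-linked genes together, whereas WT 3 and WT 4 held 0 and 0.0439 CPM and 1009 and 1215 CPM of Xist, which is transcribed from the inactive X chromosome. The OMD-/- libraries held 18.4, 0.811 and 0.733 CPM of the Y-linked genes, and the PRELP-/- libraries 117, 19.0 and 18.7 CPM. Xist stood at 38.7 to 89.4 CPM in OMD-/-, and at 0.387 CPM in PRELP-/- 1 against 49.1 and 56.2 CPM in PRELP-/- 2 and 3. PRELP-/- 1 also held 460 CPM of erythrocyte genes, against 35.7 to 70.8 CPM in the other 9 libraries. Results below are therefore given with each WT pair and without PRELP-/- 1 where this changed a call.

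Endothelial markers stood higher in OMD-/- than in WT for 9 of the 10 genes by the fitted fold change, and Egfl7 stood lower. Summed over the 10 members, the level was 636, 652, 317 and 300 CPM in WT 1 to 4, 727, 826 and 842 CPM in OMD-/- and 466, 810 and 787 CPM in PRELP-/-. Thus WT 3, WT 4 and PRELP-/- 1 were the lowest libraries, and all 3 OMD-/- libraries lay above every WT library. Of the 10 members, only Eng rose and only Egfl7 fell past an adjusted p of 0.05 (edgeR quasi-likelihood test, Benjamini-Hochberg adjustment over all 16647 genes tested). Over all tested genes, 14.3% were called higher and 15.1% lower in this comparison. The members' median log2 fold change was 0.69, and that of all tested genes was -0.00020.

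**Figure D1:**
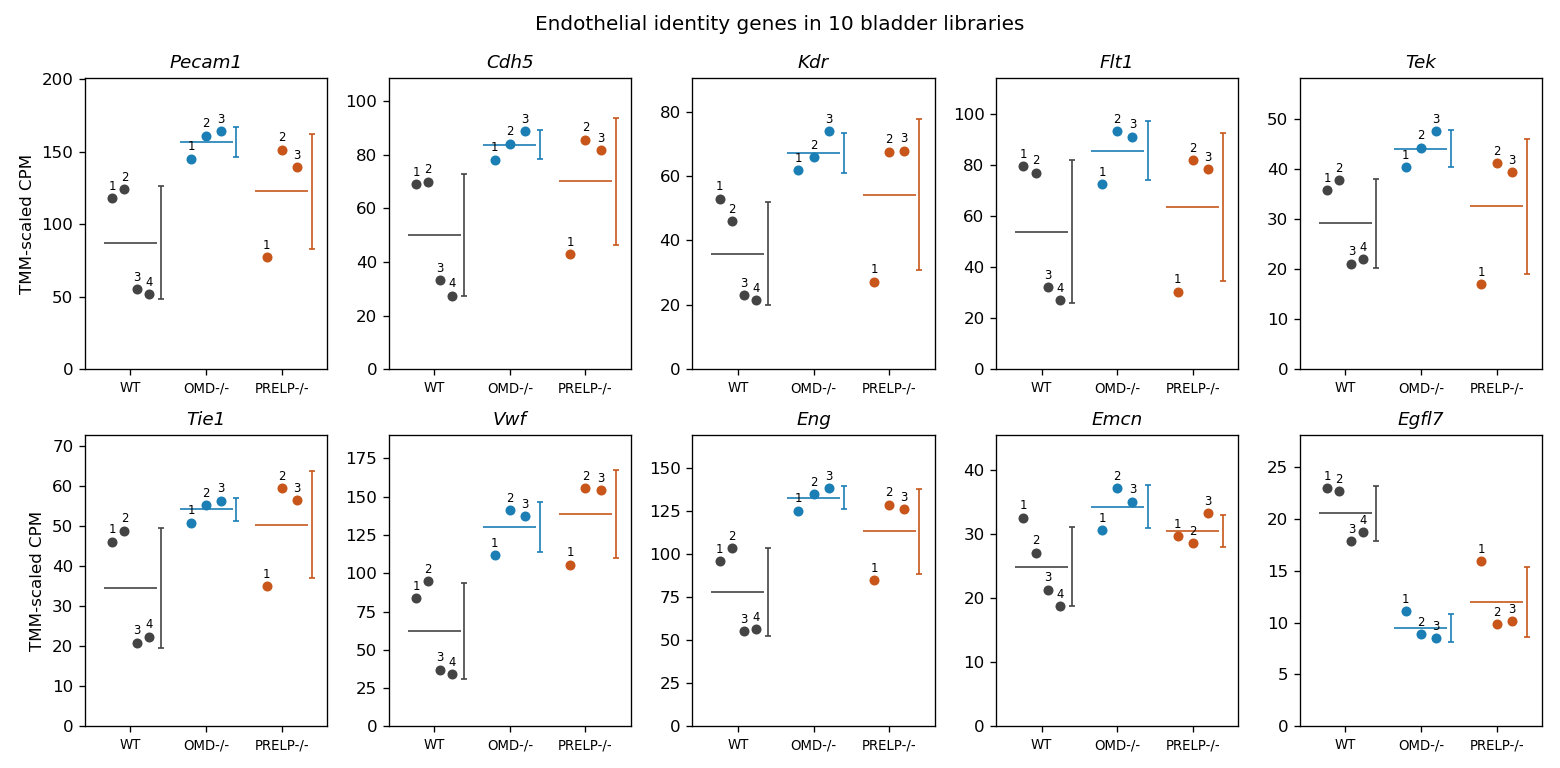
TMM-scaled CPM (vertical axis, from 0) of the 10 members in each library, numbered by replicate, for WT (n = 4), OMD-/- (n = 3) and PRELP-/- (n = 3). Horizontal lines are group means and the bars beside them span 1 SD on either side. WT 3 and 4 and PRELP-/- 1 lie low in most panels, and in the Egfl7 panel every knockout library lies below every WT library.

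Among the junction genes, Pecam1 (ENSMUSG00000020717, chr11:106654217-106750628, minus strand, GRCm38) encodes the adhesion molecule CD31. Its level was 118, 124, 55.4 and 51.8 CPM in WT, 145, 161 and 164 CPM in OMD-/-, and 77.1, 151 and 139 CPM in PRELP-/-. The OMD-/- libraries did not overlap WT, while PRELP-/- 1 fell between the WT pairs. The log2 fold change was 0.83 ± 0.33 (SE) in OMD-/- with an adjusted p of 0.101, and 0.46 ± 0.37 in PRELP-/- with an adjusted p of 0.451. Cdh5 (ENSMUSG00000031871, chr8:104101625-104144511, plus strand), the cadherin of endothelial junctions, stood at 68.9, 69.9, 33.3 and 27.5 CPM in WT, 78.1, 84.1 and 88.8 CPM in OMD-/-, and 42.9, 85.6 and 81.7 CPM in PRELP-/-. As for Pecam1, OMD-/- lay wholly above WT and PRELP-/- 1 lay between the WT pairs, with log2 fold changes of 0.73 ± 0.33 (adjusted p = 0.145) and 0.46 ± 0.38 (adjusted p = 0.465).

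The VEGF receptors followed. Kdr (ENSMUSG00000062960, chr5:75932827-75978458, minus strand), the main signalling receptor for VEGF-A, stood at 53.0, 46.05, 23.1 and 21.5 CPM in WT, 61.8, 65.9 and 74.0 CPM in OMD-/-, and 27.2, 67.6 and 67.9 CPM in PRELP-/-. The OMD-/- levels lay above all 4 WT levels, and the log2 fold change of 0.88 ± 0.32 had an adjusted p of 0.0729. In PRELP-/- it was 0.56 ± 0.41 (adjusted p = 0.401). Flt1 (ENSMUSG00000029648, chr5:147561604-147726011, minus strand), a receptor that binds VEGF-A tightly and also has a soluble form, stood at 79.4, 76.9, 32.1 and 27.1 CPM in WT, 72.5, 93.2 and 90.9 CPM in OMD-/-, and 30.3, 81.8 and 78.3 CPM in PRELP-/-. OMD-/- 1 lay below WT 1 and WT 2, so the groups overlapped. Log2 fold changes were 0.65 ± 0.41 (adjusted p = 0.288) in OMD-/- and 0.21 ± 0.46 (adjusted p = 0.806) in PRELP-/-.

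Tek (ENSMUSG00000006386, chr4:94739289-94874976, plus strand), the angiopoietin receptor TIE2, stood at 35.8, 37.8, 21.1 and 22.0 CPM in WT, 40.3, 44.3 and 47.7 CPM in OMD-/-, and 17.1, 41.2 and 39.4 CPM in PRELP-/-. The level in PRELP-/- 1 was under all 9 others. Its log2 fold change in OMD-/-, 0.58 ± 0.20, lay just outside the threshold (adjusted p = 0.0524), and in PRELP-/- it was 0.13 ± 0.33 (adjusted p = 0.831). Tie1 (ENSMUSG00000033191, chr4:118471191-118490061, minus strand), an orphan receptor that partners TIE2, stood at 46.1, 48.8, 20.9 and 22.4 CPM in WT, 50.8, 55.3 and 56.4 CPM in OMD-/-, and 35.1, 59.6 and 56.5 CPM in PRELP-/-. OMD-/- lay above WT here too, by a narrow margin over WT 2, with 0.63 ± 0.30 on the log2 scale (adjusted p = 0.159). In PRELP-/- the change was 0.51 ± 0.34 (adjusted p = 0.361).

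Eng rose in OMD-/-. The gene (ENSMUSG00000026814, chr2:32646595-32682669, plus strand) stood at 95.8, 104, 55.2 and 56.3 CPM in WT, 125, 134 and 138 CPM in OMD-/-, and 84.7, 129 and 126 CPM in PRELP-/-. All 3 OMD-/- libraries lay above the 4 WT libraries, while in PRELP-/- replicate 1 lay below WT 1 and WT 2. The log2 fold change was 0.75 ± 0.22 in OMD-/- (adjusted p = 0.0286) and 0.51 ± 0.27 in PRELP-/- (adjusted p = 0.258). The call in OMD-/- was lost without WT 4 (adjusted p = 0.0643), without OMD-/- 2 (adjusted p = 0.0803) and without OMD-/- 3 (adjusted p = 0.0898). It was also lost with no filter on low counts (adjusted p = 0.158) and in 1 fit of all 3 groups (adjusted p = 0.0502). Eng shares exon bases with Fpgs on the opposite strand, at a mean of 24.1 CPM, and whether reads were counted by strand is not given in the sources used here. Fpgs moved the other way in the fit, by -0.28 (adjusted p = 0.120).

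Vwf had the highest fitted fold change of the 10 members in both knockouts. Its level (ENSMUSG00000001930, chr6:125546774-125686679, plus strand) was 83.5, 94.8, 37.1 and 33.9 CPM in WT, 112, 141 and 137 CPM in OMD-/-, and 106, 156 and 154 CPM in PRELP-/-. Every library of both knockouts lay above every WT library, PRELP-/- 1 included. The log2 fold changes were 1.05 ± 0.39 in OMD-/- (adjusted p = 0.0894) and 1.12 ± 0.37 in PRELP-/- (adjusted p = 0.102). Emcn (ENSMUSG00000054690, chr3:137341067-137432185, plus strand), the endothelial sialomucin, had a narrower range, with 32.6, 27.1, 21.3 and 18.7 CPM in WT, 30.6, 37.3 and 35.1 CPM in OMD-/-, and 29.7, 28.6 and 33.3 CPM in PRELP-/-. Its PRELP-/- 1 level lay among the other PRELP-/- libraries, and both knockouts overlapped WT 1. Log2 fold changes were 0.44 ± 0.17 (adjusted p = 0.0750) and 0.26 ± 0.20 (adjusted p = 0.428).

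Egfl7 fell in OMD-/-. The gene (ENSMUSG00000026921, chr2:26580014-26593120, plus strand) stood at 23.0, 22.7, 17.8 and 18.7 CPM in WT, 11.1, 8.92 and 8.52 CPM in OMD-/-, and 15.9, 9.88 and 10.1 CPM in PRELP-/-. All 6 knockout libraries lay below all 4 WT libraries. The WT mean was 20.6 ± 2.66 CPM (SD, n = 4), against 9.51 ± 1.37 CPM (SD, n = 3) in OMD-/- and 12.0 ± 3.40 CPM (SD, n = 3) in PRELP-/-. The log2 fold change was -1.14 ± 0.14 in OMD-/- (adjusted p = 0.000244) and -0.81 ± 0.21 in PRELP-/-, where the adjusted p of 0.0552 missed the threshold. Leaving out any 1 library kept the OMD-/- change between -1.24 and -1.07, with adjusted p-values of at most 0.00306. Without PRELP-/- 1 the change in PRELP-/- was -1.05 with an adjusted p of 0.00183, in a fit where 11.5% of all tested genes were called lower.

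Egfl7 shares exon bases with Agpat2, a lipid-synthesis gene on the opposite strand. Agpat2 stood at 26.4, 26.9, 31.2 and 26.4 CPM in WT, 28.8, 21.4 and 20.2 CPM in OMD-/-, and 50.0, 29.0 and 24.6 CPM in PRELP-/-. Its libraries did not separate by genotype, and the log2 fold changes were -0.26 (adjusted p = 0.141) in OMD-/- and 0.29 (adjusted p = 0.463) in PRELP-/-. The part of these shared bases in the Egfl7 counts was not tested.

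By the separation of libraries alone, 7 members in OMD-/- lay wholly above WT, 1 (Egfl7) wholly below, and 2 (Flt1 and Emcn) overlapped WT. Over all tested genes, 20.5% lay wholly above and 18.5% wholly below. In PRELP-/-, 1 member (Vwf) lay wholly above, 1 (Egfl7) wholly below, and 8 overlapped WT, where 14.5% of all tested genes lay wholly above and 15.8% wholly below. In PRELP-/- against WT, 0 of the 10 members passed, although 1.40% of tested genes were called higher and 5.89% lower, and Vwf and Egfl7 had unadjusted p-values of 0.0151 and 0.00448 in the edgeR test. DESeq2 called both of them (adjusted p = 0.0176 and 0.00985), in a fit where 5.03% of genes with an adjusted p were called higher and 8.53% lower. The members' median log2 fold change in PRELP-/- was 0.46, against 0.023 over all tested genes. Both knockouts were compared with the same 4 WT libraries, so their values are not independent of each other.

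The size of the differences turned on which WT libraries were used. Against WT 1 and 2 only, 5 members were higher in OMD-/-: Vwf by 0.53, Kdr by 0.42, Eng by 0.40, Pecam1 by 0.36 and Cdh5 by 0.25 on the log2 scale, with adjusted p-values of 0.00493 to 0.0478. The other 4 that had been higher did not pass, at 0.11 for Flt1, 0.25 for Tek, 0.18 for Tie1 and 0.18 for Emcn, and Egfl7 was lower by -1.28 (adjusted p = 9.98e-05). In that fit 12.7% of all tested genes were called higher and 13.6% lower. Against WT 3 and 4 only, 9 members were higher, from 0.75 for Emcn to 1.85 for Vwf, and Egfl7 was lower by -0.97 (adjusted p = 0.000594). There, 20.3% of all tested genes were called higher and 19.5% lower. Each of these fits holds only 2 WT libraries that lie close together, so its p-values leave out the spread between the WT pairs. For Pecam1 the SE was 0.083 against WT 1 and 2 and 0.091 against WT 3 and 4. With all 4 WT libraries it was 0.33. Egfl7 therefore differed less between these fits than the others did, and its change was largest against the WT pair in which the other 9 members were high.

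With the mean level of the Y-linked genes as a covariate, 9 members were higher in OMD-/- and Egfl7 was lower (-1.07, adjusted p = 2.58e-05), in a fit that called 20.0% of all tested genes higher and 19.0% lower. In PRELP-/- the same covariate left Egfl7 alone past the threshold (-0.91, adjusted p = 0.0464), with 4.46% of all tested genes called lower. These fits used a common slope for both groups. In WT the libraries with more Y-linked transcripts had the higher member sums. In each knockout, replicate 1 held the most Y-linked transcripts and had the lowest member sum, so a common slope does not describe both groups. Against WT 3 and 4 only, Vwf alone was higher in PRELP-/- (1.94, adjusted p = 0.0248), where 0.316% of all tested genes were called higher, and against WT 1 and 2 none of the 10 passed. In this last fit 0.00601% of all tested genes were called higher and 0.709% lower, and 4 members turned slightly negative, from -0.33 for Flt1 to -0.012 for Pecam1. The part of the Y-linked and Xist difference in these results was not tested.

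**Figure D2:**
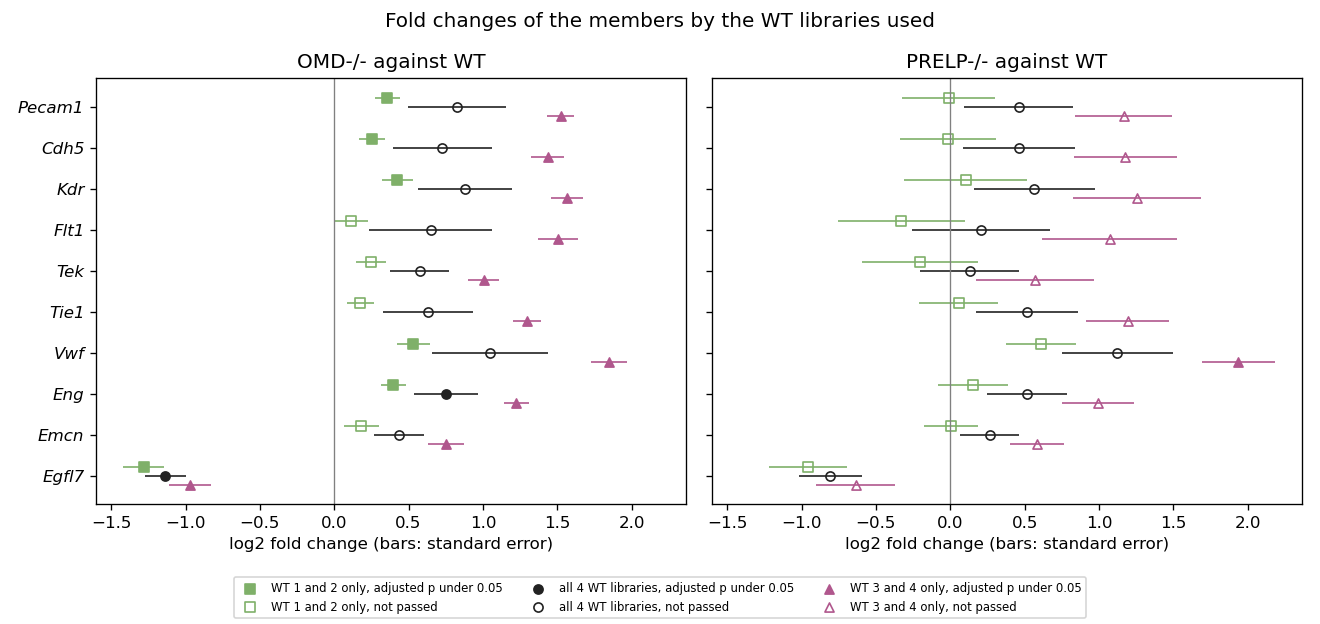
Log2 fold changes (horizontal axis, bars show 1 SE on either side) of the 10 members in OMD-/- (left) and PRELP-/- (right) against WT 1 and 2 (squares), all 4 WT libraries (circles) and WT 3 and 4 (triangles), with filled symbols for an adjusted p under 0.05 in edgeR. In OMD-/-, Egfl7 is filled and negative in all 3 fits, from -1.28 to -0.97, while the other 9 members spread from 0.11 to 1.85.

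Directly against OMD-/-, PRELP-/- differed in 0 of the 10 members. Log2 fold changes ran from -0.43 for Tek and Flt1 to 0.34 for Egfl7, with a median of -0.24 and adjusted p-values of at least 0.690 in edgeR, and 0.00633% of all tested genes (1 of 15805) were called in either direction. No member had an unadjusted p under 0.05, the lowest being 0.195 for Egfl7, and DESeq2 called 0 members as well. SEs were 0.14 to 0.36, so differences of this size remain possible in either direction. PRELP-/- 2 and 3 were within the range of the OMD-/- libraries or close to it for most members. For example, Pecam1 stood at 151 and 139 CPM in them against 145 to 164 CPM in OMD-/-, and Egfl7 at 9.88 and 10.1 CPM against 8.52 to 11.1 CPM.

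The members were also compared with one another. For each library, the log2 CPM of a gene was set against the median log2 CPM of the other 9. This difference varied over the 10 libraries by 0.26 for Cdh5, 0.31 for Pecam1 and 0.40 for Kdr, by 0.63 for Eng, 0.74 for Tek, 0.86 for Flt1 and Tie1, 1.20 for Vwf and 1.27 for Emcn. It varied by 2.84 for Egfl7, the lowest member on this scale in every library of WT and both knockouts, level with Emcn in WT 4. Its values were -1.58, -1.62, -0.85 and -0.53 in WT, -2.70, -3.23 and -3.37 in OMD-/-, and -1.14, -3.04 and -2.94 in PRELP-/-. OMD-/- thus lay wholly below WT, and PRELP-/- 1 lay within the WT range. Vwf was shifted the other way in PRELP-/-, at 1.80, 1.20 and 1.18, against 0.60 to 0.96 in WT. Tek lay lower in PRELP-/-, at -1.04, -0.99 and -0.99, against -0.94 to -0.30 in WT. These differences are a description, with no test.

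**Figure D3:**
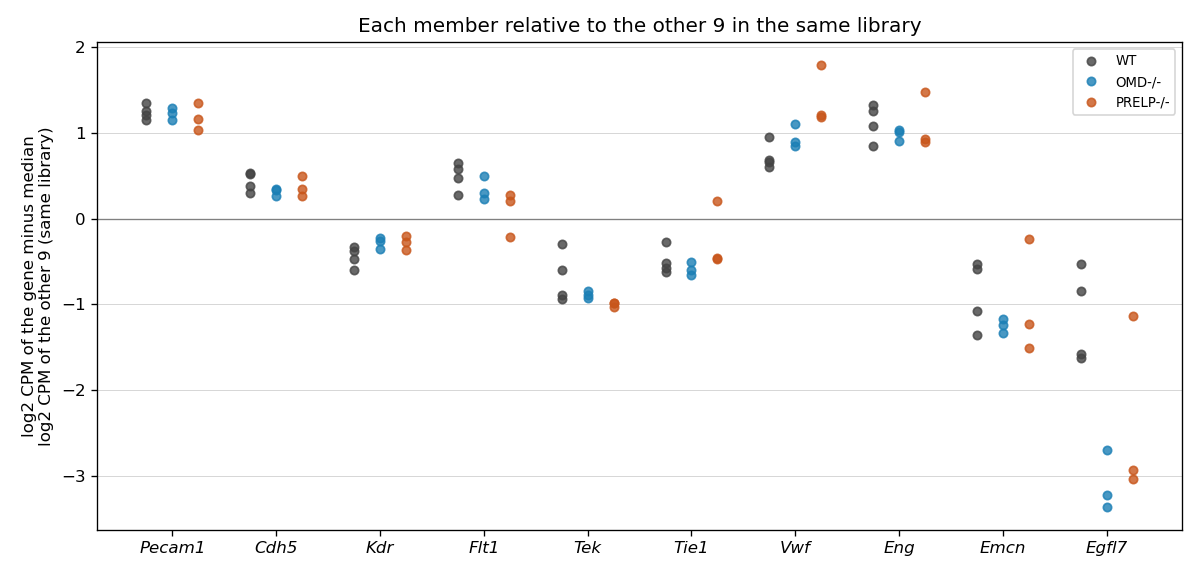
For each member (horizontal axis), the log2 CPM in a library minus the median log2 CPM of the other 9 members in that library (vertical axis), with 1 point per library for WT, OMD-/- and PRELP-/-. Points of Pecam1, Cdh5 and Kdr lie within 0.40 of each other, whereas those of Egfl7 run from -3.37 to -0.53 and those of Vwf are highest in PRELP-/-.

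Library sizes were also set from the summed counts of 32 other pan-endothelial genes, which expresses each member relative to that sum. The sum was 920 to 1342 CPM in WT, of which Mecom held a mean of 232 CPM and Cd34 163 CPM. Both were nearly equal in the WT pairs, with WT 1 and 2 over WT 3 and 4 at 1.09 and 1.05. Ptprb of the same list (118 CPM) stood at 2.04, and the members Pecam1 and Cdh5 at 2.26 and 2.28. This scale is therefore set in part by genes without the members' WT split. On that scale Egfl7 was lower in OMD-/- by -1.61 (adjusted p = 0.000371) and Vwf was higher by 0.64 (adjusted p = 0.0399), Eng no longer passed (0.31, adjusted p = 0.0991), and Emcn stood at -0.022 (adjusted p = 0.915). This scaling, chosen after the data were seen, also shifted the median of all tested genes to -0.50, and 1.65% of all tested genes were called higher and 36.4% lower. Relative to these genes 0 members passed in PRELP-/-, where Vwf stood at 0.91 (adjusted p = 0.0563) and Egfl7 at -1.02 (adjusted p = 0.0784), and Flt1 and Tek turned to -0.053 and -0.18.

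Compared per length, the order of the members in WT, as CPM per kilobase of union exon length, ran from Eng at 19.2 ± 6.31 (SD, n = 4), Pecam1 at 14.0 ± 6.28 and Cdh5 at 11.9 ± 5.39 to Tie1 at 7.03 ± 3.04, Tek at 6.19 ± 1.88 and Egfl7 at 5.74 ± 0.742. Emcn at 4.61 ± 1.14, Flt1 at 3.99 ± 2.08, Kdr at 3.98 ± 1.77 and Vwf at 3.88 ± 1.95 closed it. The ranges of every pair of neighbours overlapped in WT. Within libraries, Eng lay above Pecam1, and Pecam1 above Cdh5, in all 4 WT libraries. In OMD-/- Eng (32.8 ± 1.69), Pecam1 (25.2 ± 1.64), Cdh5 (19.9 ± 1.28), Tie1 (11.02 ± 0.598) and Tek (9.36 ± 0.777) held the same order with no overlap between neighbours (n = 3), while Egfl7 (2.65 ± 0.383) moved to the last place. Egfl7 was also last in PRELP-/-, at 3.34 ± 0.9503. With the length of the longest transcript in place of the union, Pecam1 (25.4) preceded Eng (22.7) in WT and Egfl7 (11.02) came just after Cdh5, while Eng, Pecam1 and Cdh5 held the top 3 places by either length.

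The genes most like the members were found by the mean absolute difference, over the 10 libraries, between a gene's centred log2 CPM and the members' mean. The 6 closest of 15585 genes compared were C130074G19Rik (0.0622), Jam2 (0.0741), Daam2 (0.0759), Adgrf5 (0.0833), Adgra2 (0.0840) and Zfp423 (0.0862), against a median of 0.457 over all compared genes. Jam2 encodes a junctional adhesion molecule, and Adgrf5 and Adgra2 encode adhesion G protein-coupled receptors found in endothelium. Of the members, Tie1 (0.0883) and Eng (0.0998) lay nearest to their own mean, and Vwf (0.382) and Egfl7 (0.922) farthest. The 10 points share the library scaling and the low level of WT 3 and 4, so this likeness is a description only.

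Other genes of endothelium were followed in lists. The counts in these lists and those below stand beside the shares of all tested genes. These were 14.3% called higher and 15.1% lower in OMD-/-, and 1.40% and 5.89% in PRELP-/-. Counts near these shares are no result about a list. Of 32 further pan-endothelial genes, all tested, 9 rose and 0 fell in OMD-/-, with a median log2 fold change of 0.55. Those with the smallest adjusted p were Calcrl, the receptor for adrenomedullin (0.77, adjusted p = 0.000413), the matrix protein gene Mmrn2 (0.93, adjusted p = 0.00873), the tetraspanin gene Tspan18 (0.81, adjusted p = 0.00980) and Adgrl4 (0.81, adjusted p = 0.0104), all by edgeR. In PRELP-/- 1 rose, Calcrl (0.76, adjusted p = 0.0380), and 0 fell, with a median of 0.37. Their summed level ran from 920 to 1342 CPM in WT, 1516 to 1620 CPM in OMD-/- and 1105 to 1562 CPM in PRELP-/-, lowest in WT 3, WT 4 and PRELP-/- 1 as for the members.

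Among 14 ligands and co-receptors of the VEGF and angiopoietin pathways, 13 were tested in OMD-/-, of which 2 rose and 1 fell. Vegfa, the main ligand of Kdr and Flt1, stood at 87.8, 81.1, 74.1 and 71.4 CPM in WT, 40.0, 38.7 and 41.3 CPM in OMD-/-, and 35.3, 39.4 and 38.9 CPM in PRELP-/-. All 6 knockout libraries lay below all 4 WT libraries, and the WT pairs lay closer together than they did for the receptors. Vegfa fell by 0.995 on the log2 scale in OMD-/- (adjusted p = 4.06e-05) and by 1.08 in PRELP-/- (adjusted p = 0.00292). The co-receptor genes Nrp1 (0.83, adjusted p = 0.0160) and Nrp2 (0.72, adjusted p = 0.00239) rose in OMD-/-. Of the 14 genes tested in PRELP-/-, Vegfa was the only one past the threshold.

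Around endoglin, 10 of 11 genes were tested, and 5 rose and 2 fell in OMD-/-. Smad1, a transducer of BMP signals (0.44, adjusted p = 0.00720), and the receptor gene Tgfbr2 (0.35, adjusted p = 0.00926) rose, whereas Id1 (-0.93, adjusted p = 7.69e-05) and Id3 (-0.59, adjusted p = 0.00826), targets of BMP signalling, fell. In PRELP-/- none of the 10 passed. Gdf2, which encodes the endoglin ligand BMP9, had 0 counts in every library. Of 14 Notch and arterial genes, the Notch ligand gene Jag2 alone passed, falling by 0.80 in OMD-/- (adjusted p = 8.26e-05) and by 0.79 in PRELP-/- (adjusted p = 0.0256).

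Markers of vessel types were counted beside the same shares of all tested genes. Of 8 genes of venous and inflamed endothelium, 4 rose in OMD-/-: Ackr1, a chemokine-binding receptor of venules (0.70), the adhesion molecule gene Vcam1 (0.39), Ephb4 (0.44) and Lrg1 (0.89), with adjusted p-values of 0.0224 to 0.0471. None of the 8 passed in PRELP-/-, where Ackr1 stood at 0.93 (adjusted p = 0.0928) and Lrg1 at 1.10 (adjusted p = 0.109). Of 9 capillary genes, 7 were tested and 0 passed in either knockout, with medians of 0.099 and 0.20. Their summed level was nevertheless 175 to 294 CPM in WT, 326 to 374 CPM in OMD-/- and 353 to 360 CPM in PRELP-/-, with all 6 knockout libraries above WT. Aqp1 alone held most of that sum, at means of 156 CPM in WT, 260 CPM in OMD-/- and 261 CPM in PRELP-/-. Of 7 lymphatic genes, 6 were tested in OMD-/- and 5 in PRELP-/-, and 0 passed, with medians of 0.15 and -0.13. Ccl21a of that list had 0 counts in every library, and the summed lymphatic level was 103 to 136 CPM in WT, 136 to 147 CPM in OMD-/- and 126 to 146 CPM in PRELP-/-, without the low values of WT 3 and 4 seen for the members. Most of that sum came from Pdpn (WT mean 87.1 CPM) and Maf (26.5 CPM). Prox1, Lyve1, Mmrn1 and Reln had WT means of only 0.460, 2.75, 1.44 and 2.47 CPM, so the sum says little about them.

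Markers of other cells were counted in the same way, beside the same shares. Of 11 pericyte genes, cells that wrap small vessels, 3 rose and 1 fell in OMD-/-: the channel subunit gene Abcc9 (0.99, adjusted p = 0.00249), Ndufa4l2 (0.89, adjusted p = 0.00480) and the PDGF receptor gene Pdgfrb (0.93, adjusted p = 0.0202) rose, and Mcam fell by 0.46 (adjusted p = 0.00848). None passed in PRELP-/-. Their sum was 1159 to 1233 CPM in WT and 1336 to 1401 CPM in OMD-/-, and it was 914 CPM in PRELP-/- 1 against 1402 and 1459 CPM in PRELP-/- 2 and 3. Rgs5 alone held most of that sum, at a mean of 918 CPM in WT. Its mean in WT 1 and 2 was 0.83 of that in WT 3 and 4. For the rest of the list this ratio was above 1, from 1.14 for Mcam to 2.84 for Rgs4, with Pdgfrb at 1.83. The even WT sum therefore does not describe those genes. Fibroblast genes rose in 7 of 10 in OMD-/- and 2 of 10 in PRELP-/-, with sums of 8638 to 10012 CPM in WT, 19142 to 22935 CPM in OMD-/- and 10336 CPM in PRELP-/- 1 against 21161 and 20744 CPM in PRELP-/- 2 and 3. Col1a1, which encodes a chain of type I collagen, rose by 1.58 (adjusted p = 0.000141) and 1.31 (adjusted p = 0.0263).

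Leukocyte genes rose in 7 of 10 in OMD-/- and 1 of 10 in PRELP-/-, with a sum of 332 to 395 CPM in WT, 373, 747 and 757 CPM in OMD-/- and 284 to 390 CPM in PRELP-/-. The macrophage gene Csf1r was higher in OMD-/- by 1.13 (adjusted p = 0.00179). Urothelial genes rose in 4 of 12 tested in OMD-/- and 1 of 13 in PRELP-/-, with sums of 13514 to 15057 CPM in WT, 22047, 16385 and 16619 CPM in OMD-/-, and 29139, 19387 and 18667 CPM in PRELP-/-, so that all 6 knockout libraries lay above WT. Smooth muscle genes passed in 0 of 10 in either knockout, with medians of -0.31 and -1.47. Their sum was 355 and 337 CPM in WT 1 and 2 but 1377 and 1214 CPM in WT 3 and 4, 856, 424 and 435 CPM in OMD-/-, and 261 to 268 CPM in PRELP-/-. The high smooth muscle libraries of WT were therefore the ones with low endothelial levels.

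Vwf is also made by megakaryocytes. Of 10 platelet and megakaryocyte genes, 4 were tested in OMD-/- and 5 in PRELP-/-, and Itga2b alone passed, falling by 1.52 (adjusted p = 0.00543) and by 1.43 (adjusted p = 0.0332). Their sum was 14.6 to 17.1 CPM in WT, 16.9 to 21.0 CPM in OMD-/- and 14.7 to 23.2 CPM in PRELP-/-, and Gp1bb and Gp9 had at most 3 counts in every library. None of 6 erythrocyte genes passed in either knockout. Of the mesothelial list only 1 gene was tested, Upk3b, and it did not pass. Upk3b is also in the urothelial list, so its value cannot be read as mesothelium. The part of each of these cell types in the levels of the 10 members was not tested.

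**Figure D4:**
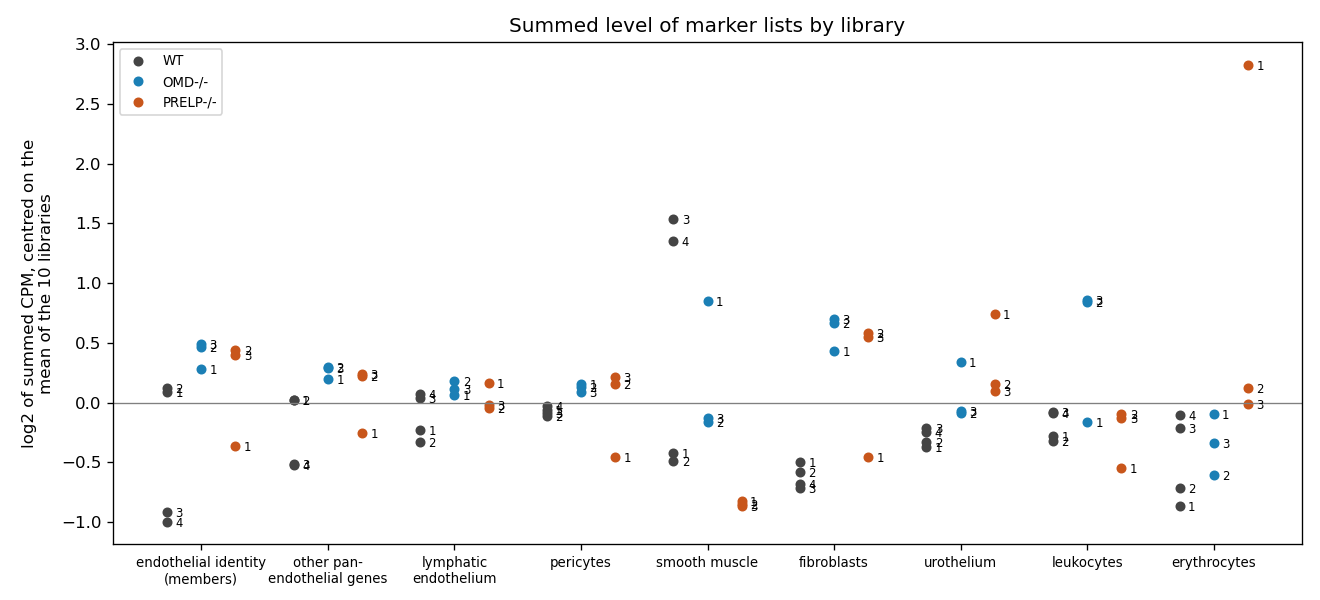
Log2 of the summed CPM of 9 marker lists (horizontal axis), centred on the mean of the 10 libraries (vertical axis), with points numbered by replicate for WT, OMD-/- and PRELP-/-. WT 3 and 4 lie low for the members and for the other pan-endothelial genes and high for smooth muscle, and PRELP-/- 1 lies high for erythrocytes and urothelium and low for pericytes and for the members. Most of the pericyte sum is Rgs5.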

How the data were processed

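RNA of 10 bladder samples was analysed. Poly(A) libraries were made by the authors with a strand-specific kit and molecular identifiers. The deposited files hold raw read counts for 55536 genes, 1 file per library. The file headers name HISAT2, while the submitters' processing notes list bcl2fastq, STAR 2.5.2b, featureCounts, DESeq2 and the builds GRCm38 and hg38. Whether strand and identifiers entered the counting is not given in the sources used here. Deposited comparison tables (mean normalised counts, fold changes, their errors, statistics and p-values) were not used. All 55536 identifiers matched GENCODE vM21 of GRCm38, which gave symbols, lengths and positions. Blocks of reads shared by overlapping genes could not be separated.

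Counts were scaled by TMM, and log2 CPM used a prior count of 2. For each comparison, the libraries of its 2 groups alone entered a fit in edgeR 4.0.16 (R 4.3.3) after its filter on low counts, with the two-sided quasi-likelihood test and Benjamini-Hochberg adjustment over all tested genes, at a threshold of 0.05. The fits were also run on simulated counts with planted changes. Those counts were drawn as independent libraries, so that check does not cover the unequal likeness of the real libraries described below. Alternatives were DESeq2 1.42.0, limma 3.58.1 with voom and quality weights, other size factors, no filter, 1 fit of all 3 groups, a replicate block, Y-linked genes as a covariate, the WT pairs, other library sizes and leaving out each library. Depth was 20391437 to 46269079 counts, and counts of 3 or fewer were taken as the floor, which covers counting error only.

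Replicate numbers were checked as pairs by the correlation of deviations from group means. These were -0.060, -0.023 and 0.00019 for OMD-/- with WT, -0.21, 0.26 and -0.22 for PRELP-/- with WT, and 0.47, 0.35 and 0.31 for PRELP-/- with OMD-/-. The last correlations were the highest, but replicate 1 stood apart in both knockout groups, so they cannot establish pairs. The labels give no pairs. The reported fits were all unpaired, and the replicate block was run as an alternative. No pair of libraries within a group agreed within sampling noise, by the chi-square per degree of freedom over genes with a mean of at least 20 counts. The closest pairs were OMD-/- 2 and 3 (3.20) and PRELP-/- 2 and 3 (3.76). Replicate 1 lay much farther from them, at 29.1 and 26.6 in OMD-/- and at 244 and 240 in PRELP-/-. The knockout libraries are therefore not equally separate.

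Named genes were the 10 members, up to 4 genes per list with the smallest adjusted p past 0.05 in OMD-/- and up to 2 in PRELP-/-, whole lists of at most 8 genes, the 6 genes most like the members, Omd and Prelp. Genes that overlap members, and values of list genes that did not pass, were named after their values were seen. The members and lists were chosen with earlier results of these data known.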

Additional observations from a re-analysis of the deposited data

How the results depend on the processing

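Egfl7 was called lower in OMD-/- in every alternative run, leave-one-out fits included. The number of members called in OMD-/- (2) became 4 with DESeq2 (25.9% of all genes with an adjusted p were called, against 29.4% in the reported fit), 1 in 1 fit of all 3 groups (14.7%), 10 with the Y-linked covariate (39.0%), 6 against WT 1 and 2 (26.3%), 10 against WT 3 and 4 (39.8%, members' median log2 fold change 1.37) and 10 with limma-voom weights (43.4%), and ranged from 1 (without WT 4, OMD-/- 2 or OMD-/- 3, where 25.5%, 18.2% and 17.2% were called) to 5 (without WT 1, 29.5%) when 1 library was left out, with 4 without WT 2 (29.2%). With no filter it stayed at 2, but Emcn passed (adjusted p = 0.0377) and Eng did not (adjusted p = 0.158). In PRELP-/- the count of 0 became 1 with no filter (3.76% of all genes called, against 7.29% in the reported fit), 2 with DESeq2 (13.6%), 2 in 1 fit of all 3 groups (14.7%), 1 with the Y-linked covariate (5.17%), 1 against WT 3 and 4 (2.70%) and 10 with limma-voom weights (42.1%), and ranged from 0 to 1 (without PRELP-/- 1, 22.2%) when 1 library was left out. The voom weights and the pan-endothelial library sizes were added after the data were seen. The causes were not tested.

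Some members changed sign. In OMD-/-, Emcn stood at -0.022 with pan-endothelial library sizes. In PRELP-/-, Flt1 and Tek stood at -0.026 and -0.036 with the replicate block and at -0.053 and -0.18 with pan-endothelial library sizes, and against WT 1 and 2 Pecam1, Cdh5, Flt1 and Tek stood at -0.012, -0.015, -0.33 and -0.20. Leaving out 1 library gave -0.018 to 0.56 for Flt1 and -0.067 to 0.45 for Tek. In PRELP-/- against OMD-/-, the Y-linked covariate gave 0.044 for Pecam1, 0.14 for Cdh5, 0.19 for Kdr, 0.20 for Flt1, 0.051 for Tek, 0.23 for Tie1, 0.059 for Eng, 0.026 for Emcn and -0.15 for Egfl7. Tie1 turned to 0.060 with voom weights and 0.054 with pan-endothelial library sizes, where Emcn stood at 0.038. Leaving out 1 library gave -0.015 to 0.25 for Vwf, -0.49 to 0.0048 for Kdr and -0.24 to 0.093 for Tie1.

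With the replicate block, Eng (0.68, adjusted p = 0.0371) and Egfl7 (-1.17, adjusted p = 0.000264) passed in OMD-/- and no member passed in PRELP-/-. It changed no call in any comparison. In PRELP-/- against OMD-/-, Tek stood at -0.52 (adjusted p = 0.503). Groups of 3 and 4, in which WT 3 and 4, OMD-/- 1 and PRELP-/- 1 stood apart, limit what could be detected.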
